A study of Homo sapiens with 132 samples.

Results

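The response of MKN1 gastric cancer cells to 24 h of cetuximab was described from 6 RNA sequencing libraries, 3 of cells treated with 1 μg/ml cetuximab and 3 of untreated cells, out of 42 MKN1 libraries in the study. The members were all libraries whose labels give the cell line MKN1, the time point 24 h and cetuximab without EGF, or no treatment, and the replicate number of the labels was used as the pair. MKN1 is a single established human cell line, which the study chose as responsive to cetuximab. Both groups were grown in the same medium, which was renewed 2 h before treatment. The control was untreated and received no antibody, so an effect of an unspecific antibody was not measured. Values from 4 other sets of libraries were used for comparison, namely MKN1 after 4 h with or without cetuximab, MKN1 after 24 h with EGF (5 ng/ml) or EGF plus cetuximab, MKN1 after 24 h with 0.5 μM afatinib, and Hs746T gastric cancer cells, chosen by the study as a non-responsive line, after 24 h with or without cetuximab. The series is described as biological triplicates, but the labels do not say how separate the cultures were. The p-values measure the spread between libraries, not between separate cultures, after the replicate number is taken into account. For MKN1 that spread was estimated over all 42 libraries, which include cells given trastuzumab alone or with afatinib.

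Cetuximab is an antibody against the extracellular part of the epidermal growth factor receptor EGFR that blocks ligand binding. Bound ligand makes the receptor activate RAS and the MAP kinases ERK, which induce immediate early transcription factors such as EGR1 and FOSL1. The same signal induces its own brakes, among them the DUSP phosphatases that inactivate ERK and the Sprouty and SPRED proteins that act on RAS and RAF, and it induces EGFR ligands, which are shed from the cell surface. Transcripts of such genes are short-lived and serve as a readout of ERK activity.

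In the 6 libraries the total count ranged from 44611027 to 55323061, so that 3 counts, the limit that a count of 0 allows, corresponded to 0.0542 to 0.0672 CPM, the count scaled to the size of the library. These limits cover counting error only. Levels below are CPM after TMM scaling and are compared between libraries, not between genes. The keratins KRT8, KRT18 and KRT19 were abundant in all 6 libraries, while the other epithelial markers were low, with EPCAM between 19.9 and 28.5 CPM and the cadherin CDH1 between 2.31 and 6.16 CPM of the library total. The library of untreated replicate 2 differed most from its group, with a mean chi-square per gene of 49.5 and 53.3 against the other untreated libraries, where the other 4 pairs of replicates had 20.7 to 25.1. Untreated replicate 3 stood apart in another way, described with the genes below. In such bulk libraries a change in all cells and a change in the share of cells that express a gene cannot be told apart.

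Of 19815 genes tested, 411 were regulated by cetuximab at 24 h (2.07% of all genes), 309 to a higher level and the others to a lower level, where regulated means an adjusted p below 0.05 in edgeR's quasi-likelihood test and an absolute log2 fold change (log2FC) above 1. Without the fold change limit 2899 genes were higher (14.6%) and 3118 lower (15.7%), which is called changed below, and their median absolute log2FC was 0.35. Among protein-coding genes with a mean log2 CPM above 1 and 1 direction in all 3 pairs, the 10 largest falls were those of EGR1, DUSP6, SPRY4, AREG, FOSL1, EREG, DUSP4, TNS4, PHLDA1 and IER3, all members of the lists of ERK pathway targets, its feedback inhibitors and EGFR ligands. Of all genes regulated to a lower level 59.8% were protein-coding. The regulated genes were mostly at a low level. The median in untreated cells was 0.399 CPM for the higher and 1.48 CPM for the lower genes, against 8.19 CPM for all tested genes. Of the 309 higher genes 195 were protein-coding (63.1%, against 73.9% of all tested genes). The replicate block mattered for these counts, since 264 genes were regulated without it, 199 higher and 65 lower, and 975 and 1172 were changed. At least 10 counts in every one of the 42 libraries were reached by 140 of the 411 genes. With that filter 89 genes were regulated to a higher and 52 to a lower level, so the excess of higher genes depended much on genes with low counts. In a fit of the 6 libraries alone 1080 genes were higher and 637 lower, which puts 62.9% of changed genes at the higher level. With library size alone as the scaling of all 42 libraries, 4019 genes were higher and 1982 lower, so the share of higher genes among changed genes moved from 48.2% to 67%, and the median log2FC of all genes moved from 0.02 to 0.10.

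The 2 groups of 3 libraries did not overlap for 281 of the 309 higher genes and for 85 of the lower genes; among all tested genes 13.2% were higher and 14.8% lower without overlap. Untreated replicate 3 was the untreated library farthest from the cetuximab libraries for 185 of the 309 higher and 77 of the lower genes. Since these genes were called from the same libraries, the counts are a description, and the share among all tested genes was not measured. The median log2 difference between the libraries of one replicate number was 0.90, 1.07 and 1.55 for the higher genes and −1.02, −0.99 and −1.53 for the lower genes, in the order of replicates 1, 2 and 3. Without untreated replicate 3, 194 genes were regulated, 59 of them lower, and of the 411 regulated genes 170 remained regulated and 267 remained changed. Replicate 3 carries another run of sample numbers in the labels than replicates 1 and 2, and its part in this was not tested.

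**Figure D1:**
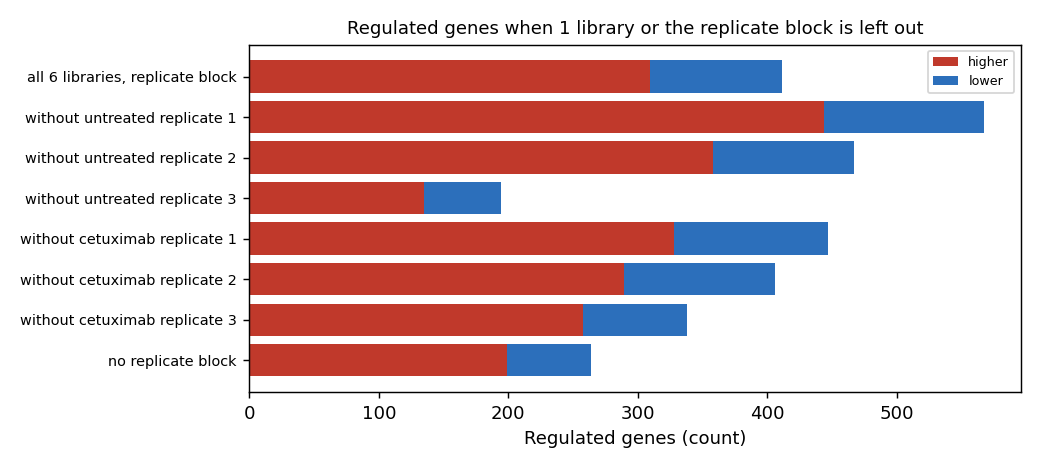
Number of regulated genes at 24 h (x axis, count), split into genes higher (red) and lower (blue) with cetuximab, with all 6 libraries, with each library left out in turn, and without the replicate block. The count was lowest without untreated replicate 3 (194) and highest without untreated replicate 1 (567).

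The promoters of a few genes are shown first, because binding sites for factors downstream of ERK are known in promoters of such genes. Sequences are RefSeq promoters on GRCh38.p14 from 250 bases before to 50 bases after the start, written in the direction of transcription, and the table held 160 of the 309 higher and 47 of the lower genes. Capitals mark matches, on either strand, to the CArG box bound by serum response factor, to the cAMP response element (TGACGTCA), to the AP-1 site (TGACTCA or TGAGTCA) or to the core of the interferon response element, 2 GAAA runs with 2 bases between them. EGR1 lies at chr5:138465229-138465528 on the plus strand and holds 2 CArG boxes, AREG at chr4:74444886-74445185 on the plus strand and EPHA2 at chr1:16156020-16156319 on the minus strand each hold 1 cAMP response element, and IL11 at chr19:55370414-55370713 on the minus strand holds an AP-1 site. All 4 genes fell. TNFSF10, which rose, lies at chr3:172523381-172523680 on the minus strand and holds the interferon core, read on the opposite strand.
EGR1: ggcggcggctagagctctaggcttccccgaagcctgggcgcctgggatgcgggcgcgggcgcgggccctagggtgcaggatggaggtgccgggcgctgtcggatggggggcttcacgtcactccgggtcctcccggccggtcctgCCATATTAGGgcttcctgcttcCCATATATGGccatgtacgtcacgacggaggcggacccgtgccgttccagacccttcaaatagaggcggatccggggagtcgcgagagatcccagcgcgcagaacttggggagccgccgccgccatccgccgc
AREG: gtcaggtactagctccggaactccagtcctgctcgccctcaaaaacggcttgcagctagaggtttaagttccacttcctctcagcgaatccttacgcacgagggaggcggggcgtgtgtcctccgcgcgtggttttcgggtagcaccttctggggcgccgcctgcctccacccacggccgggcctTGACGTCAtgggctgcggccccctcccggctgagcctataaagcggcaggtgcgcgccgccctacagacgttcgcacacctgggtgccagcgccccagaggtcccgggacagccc
EPHA2: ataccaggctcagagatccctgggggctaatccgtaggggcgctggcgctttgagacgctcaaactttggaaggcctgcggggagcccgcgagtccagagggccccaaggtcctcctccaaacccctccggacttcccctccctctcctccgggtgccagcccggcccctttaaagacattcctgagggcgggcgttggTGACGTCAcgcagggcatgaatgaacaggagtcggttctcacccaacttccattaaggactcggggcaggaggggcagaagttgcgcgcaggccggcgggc
IL11: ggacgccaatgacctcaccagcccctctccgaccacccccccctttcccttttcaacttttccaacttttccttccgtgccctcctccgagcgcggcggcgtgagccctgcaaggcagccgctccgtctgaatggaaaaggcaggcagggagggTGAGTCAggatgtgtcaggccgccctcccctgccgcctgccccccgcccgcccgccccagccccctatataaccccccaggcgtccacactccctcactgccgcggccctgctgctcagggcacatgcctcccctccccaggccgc
TNFSF10: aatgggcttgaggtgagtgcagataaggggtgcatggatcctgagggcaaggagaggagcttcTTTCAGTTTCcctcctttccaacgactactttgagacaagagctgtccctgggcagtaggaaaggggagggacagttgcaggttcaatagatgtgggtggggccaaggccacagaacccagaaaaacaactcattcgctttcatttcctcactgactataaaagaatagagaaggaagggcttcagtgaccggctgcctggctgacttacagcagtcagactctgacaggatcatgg

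Such a match describes letters and not a used site, and the promoters shown are examples that hold one. The cAMP response element was present in 5 of the 47 promoters of lower genes (10.6%) and in 0 of the 160 of higher genes, against 2.95% of the 12665 promoters of tested genes and 1.98% of all 27305 promoters. AP-1 sites were found in 10.6% of the lower and 7.5% of the higher genes, against 3.49% of tested and 4.92% of all promoters. The ETS site CCGGAAGT was found in 0 of the lower and 1.25% of the higher genes, against 7.09% of tested and 4.44% of all promoters. Of 33 listed interferon-stimulated genes 25 had a promoter in the table, and 16 of these (64%) held the interferon core, against 2.83% of tested and 3.65% of all promoters. DUSP8, a phosphatase gene that did not fall, holds 2 cAMP response elements, so the element was present in genes that fell and in a gene that did not. CArG boxes were found in 1 of the 47 lower (2.13%) and 1 of the 160 higher genes (0.625%), against 1.07% of tested and 1.29% of all promoters. CDH1, which rose, holds a CArG box, and TNFSF15, which also rose, holds an AP-1 site.

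Among the immediate early transcription factors 16 of 22 tested members fell and 2 rose (15 and 0 without the replicate block), and the median log2FC was −0.70 against 0.02 for all genes. EGR1 (chr5:138465490-138469315, plus strand), a zinc finger factor induced within minutes of ERK activation, stood at 232, 113.4 and 282 CPM in untreated replicates 1 to 3 and at 21.7, 20.1 and 33.4 CPM with cetuximab. Every cetuximab library was far below every untreated one, and the log2FC was −3.04 ± 0.29 (SE; adjusted p = 6.44e-09). The AP-1 subunit gene FOSL1 stood at 68.3, 75.1 and 125.4 CPM untreated and at 22.3, 19 and 16.5 CPM with cetuximab, again without overlap (log2FC −2.21 ± 0.26, adjusted p = 1.85e-07). Its highest untreated value was that of replicate 3. Of the other EGR genes, EGR3 fell by 3.23, EGR2 by 2.65 and EGR4 by 1.49 on the log2 scale, all from untreated levels of at most 8.25 CPM. The stress response gene IER3 fell by 1.53 and the nuclear receptor gene NR4A1, at 16.4 to 22.1 CPM untreated and 6.88 to 7.77 CPM treated, fell by 1.33 on the log2 scale.

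The brakes of the pathway fell as well. Of 9 tested MAP kinase phosphatases 7 fell and 2 rose. DUSP6 (chr12:89347232-89353271, minus strand), a cytoplasmic phosphatase specific for ERK, stood at 15.5, 14.6 and 41.2 CPM in untreated cells and at 2.87, 2.71 and 4.49 CPM with cetuximab. The untreated replicate 3 was more than 2-fold above the other untreated libraries, yet even the lowest untreated library was above all 3 treated ones (log2FC −2.73 ± 0.31, adjusted p = 8.77e-08; −2.43 without untreated replicate 3). The nuclear phosphatases DUSP4 and DUSP5 fell by 1.87 and 1.42 on the log2 scale, and DUSP2, DUSP7, DUSP9 and DUSP10 fell by 0.79, 0.58, 0.38 and 0.47. DUSP8 and DUSP16 rose by log2FC 0.19 and 0.44, calls that were lost without the replicate block (adjusted p = 0.249 and 0.0906), and for DUSP8 also without untreated replicate 3 (0.123).

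Of 7 Sprouty and SPRED genes 4 fell and 2 rose. SPRY4 (chr5:142310427-142326455, minus strand) stood at 17.3, 20.2 and 53.7 CPM untreated and at 3.73, 4.62 and 6 CPM treated, without overlap (log2FC −2.56 ± 0.30, adjusted p = 1.33e-07). SPRY2, SPRED1 and SPRED2 fell by 0.86, 0.78 and 0.69 on the log2 scale. SPRY1 had a log2FC of −0.26 ± 0.13 and did not pass (adjusted p = 0.116), while SPRED3 rose by 0.54 and SPRY3, at about 2 CPM, had an adjusted p of 0.0496 that was lost without the block (0.123) and without untreated replicate 3 (0.140). ERRFI1, whose product binds and inhibits the EGFR kinase, was the only member of 10 receptor feedback inhibitors that was regulated, from 50.3, 57.8 and 85.7 to 22.7, 29.1 and 25.3 CPM (log2FC −1.31 ± 0.19).

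Of the 4 receptor genes of the EGFR family 1 passed the test. EGFR (chr7:55019021-55211628) stood at 292, 230 and 251 CPM untreated and at 317, 274 and 208 CPM with cetuximab, with overlapping groups and a log2FC of 0.04 ± 0.08 (adjusted p = 0.798). ERBB2, which encodes HER2, had 0.06 ± 0.14 (adjusted p = 0.775), and ERBB4 stayed at 0.472 to 1.78 CPM in all 6 libraries. ERBB3 was changed by 0.27 ± 0.10 (adjusted p = 0.0362), a call lost without the block (0.431) and without untreated replicate 3 (0.0855).

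The ligand genes split. On chromosome 4 the genes of epigen, epiregulin, amphiregulin and betacellulin follow each other, and the 2 in the middle fell while the last rose. EREG (chr4:74365143-74388751) stood at 31.3, 23.8 and 83 CPM untreated and at 12.4, 9.22 and 11.8 CPM treated (log2FC −1.89 ± 0.26, adjusted p = 1.57e-06). AREG (chr4:74445134-74455009) stood at 5.8, 6.33 and 17 CPM untreated and at 1.45, 1.36 and 2.49 CPM treated (log2FC −2.38 ± 0.25, adjusted p = 2.89e-08). Both were highest in untreated replicate 3, and in both all treated libraries lay below all untreated ones. BTC at chr4:74744759-74794686 rose from 4.57, 3.76 and 4.57 to 6.68, 5.1 and 7.16 CPM (log2FC 0.54 ± 0.09; adjusted p = 0.202 without the block), and EPGN stayed at or below 0.239 CPM. HBEGF, on chromosome 5, fell from 15, 20.2 and 30.9 to 8.29, 7.84 and 6.44 CPM (log2FC −1.51 ± 0.24, adjusted p = 1.67e-05). TGFA had a log2FC of −0.07 ± 0.07 (adjusted p = 0.487) with overlapping groups. EGF and NRG4, at 1.22 to 3.47 CPM, rose by log2FC 0.55 and 0.66 with adjusted p of 0.0871 and 0.0807 without the block, and EGF had 0.180 without untreated replicate 3; the 3 other neuregulin genes did not pass the test.

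**Figure D2:**
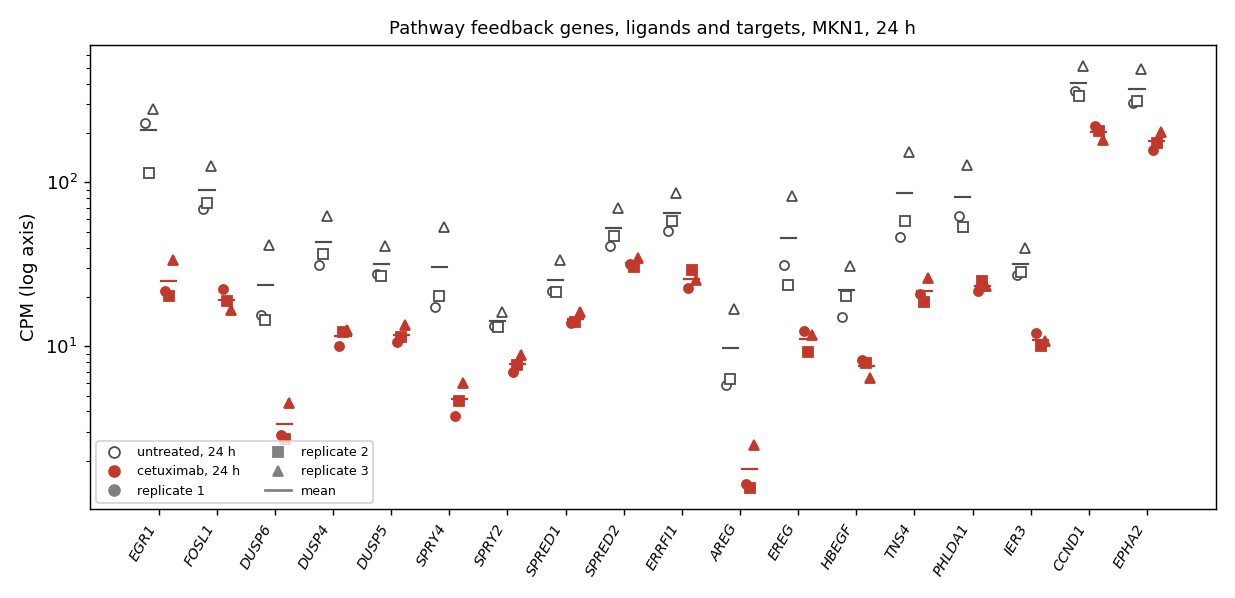
CPM (y axis, log scale) of 18 ERK pathway brakes, EGFR ligands and targets in the 3 untreated (open, grey) and 3 cetuximab (filled, red) MKN1 libraries at 24 h; symbols mark the replicate number and lines the group means. All treated libraries lie below all untreated ones for each gene, and untreated replicate 3 is the highest library for all genes shown.

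Of 21 other genes known as outputs of the pathway 19 fell, 8 of them past the fold change limit, and 0 rose. The tensin gene TNS4, tied to cell migration, fell from 46.1, 58.5 and 153.9 to 20.8, 18.5 and 26.2 CPM (log2FC −1.85 ± 0.23) and PHLDA1 by 1.72 on the log2 scale. Cyclin D1 (CCND1, chr11:69641087-69654474), which drives entry into the cell cycle, stood at 361, 338 and 515 CPM untreated and at 221, 205 and 182 CPM treated, a fall just past the limit (log2FC −1.002 ± 0.16, adjusted p = 1.31e-05), and at −0.74 without untreated replicate 3. The receptor kinase gene EPHA2 fell from 304, 314 and 494 to 157, 174 and 204 CPM, and MAFF, HMGA2 and the cytokine gene IL11 fell by 1.49, 1.05 and 1.01 on the log2 scale. CSF2 was regulated (log2FC −1.67) at no more than 0.644 CPM, but not without untreated replicate 3 (−0.76, adjusted p = 0.525). Of the 9 ETS factors tested, ETV5 was the regulated one, from 26.2, 28.7 and 53 to 12.9, 14.4 and 21 CPM. Among 13 YAP target genes 6 fell and 1 rose (4 and 0 without the block), led by the matricellular genes CTGF (log2FC −1.40 ± 0.16, from 61 to 94.8 CPM untreated) and CYR61 (−1.04 ± 0.14). VCAN, which encodes the proteoglycan versican, fell from 19.7, 17.2 and 41.4 to 8.25, 10 and 8.95 CPM (log2FC −1.46 ± 0.19).

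Growth and cell cycle genes changed broadly but little. Of 21 ribosome biogenesis genes 20 fell and 0 rose, with a median log2FC of −0.42 and 0 members past the fold change limit. NOP56, a box C/D ribonucleoprotein gene, fell from 224, 291 and 258 to 180, 168 and 165 CPM (log2FC −0.58 ± 0.07). Of 24 cytosolic ribosomal protein genes 1, RPL5, passed the test, a call lost without the block (adjusted p = 0.178), and their median log2FC was −0.24, with all 24 values below 0. Of 32 mitosis genes 26 fell (median −0.32) and of 36 DNA replication genes 27 fell (median −0.23), again with 0 past the limit and 0 rising. The mitotic kinase gene PLK1 fell from 275, 324 and 318 to 225, 211 and 178 CPM (log2FC −0.58 ± 0.08) and CCNB1 from 423, 495 and 445 to 331, 330 and 276 CPM (−0.54 ± 0.07). For the replication factor gene MCM7 the fall was 0.32 on the log2 scale, from 294, 310 and 321 to 262, 242 and 239 CPM. For all 3 genes the groups were separate. Without the replicate block 15 mitosis and 11 DNA replication genes fell, and without untreated replicate 3 these counts were 18 and 15; with library size alone they were 21 and 16, and in a fit of the 6 libraries alone 12 and 2.

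Some genes of the amino acid response also fell. Of 19 ATF4 and ER stress genes 10 fell and 1 rose. The median log2FC of the list was −0.24, no larger a shift than that of the cytosolic ribosomal protein genes. Those that fell include the serine synthesis gene PSAT1, from 236, 282 and 250 to 172, 196 and 134.5 CPM (log2FC −0.63 ± 0.08). SHMT2 and MTHFD2 of mitochondrial one-carbon metabolism fell too (−0.48 and −0.53). Of 21 glycolysis genes 9 fell and 1 rose (median log2FC −0.17), with ENO1 at −0.39 ± 0.07 the largest fall. Without the block 3 members of each list fell. Among genes that FOXO factors or low PI3K activity are known to induce, 11 of 18 rose and 4 fell. PDK4, which holds back glucose oxidation, rose by log2FC 0.68 and TXNIP, an inhibitor of glucose uptake, by 0.67, while IRS1 fell from 175, 165 and 278 to 131.5, 125.6 and 133.3 CPM (log2FC −0.64 ± 0.10). The groups overlapped for PDK4 and TXNIP, and 3 members of the list rose without the block, not among them PDK4 (adjusted p = 0.0891).

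**Figure D3:**
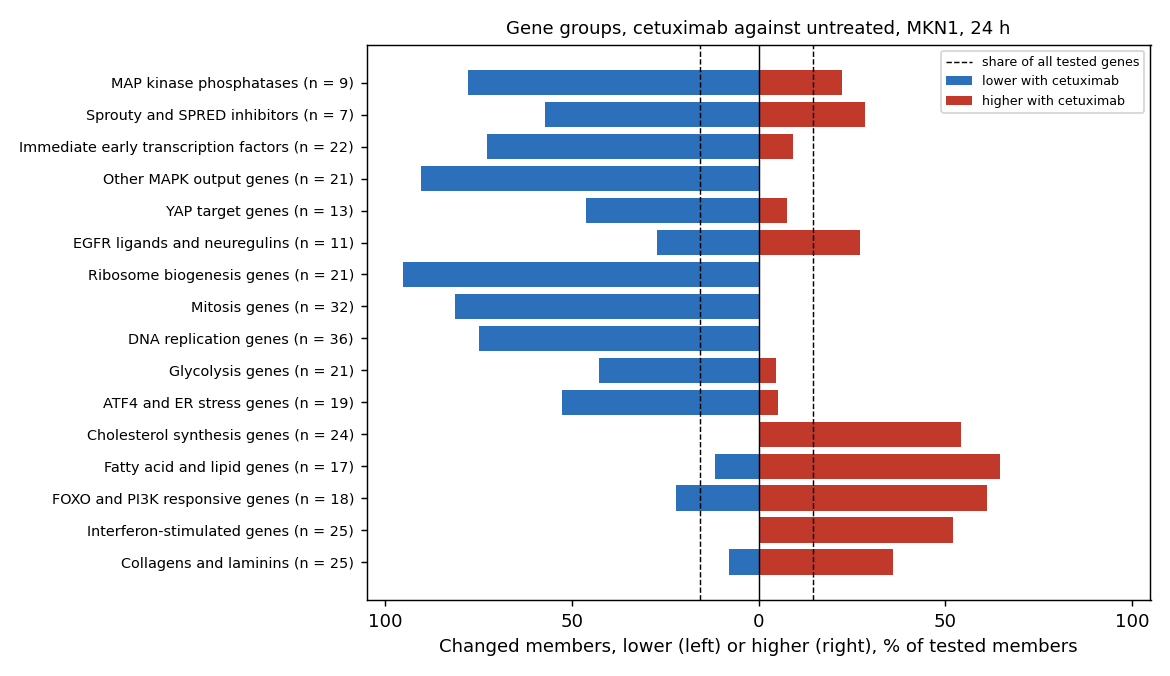
Share of tested members (x axis, %) that were changed to a lower (blue, left) or higher (red, right) level by cetuximab at 24 h in 16 gene groups, with the number tested; dashed lines give the shares among all tested genes (15.7% lower, 14.6% higher). The ERK pathway and growth groups extend to the left and the cholesterol, lipid, FOXO and interferon groups to the right.

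Lipid genes moved the other way. Of 24 cholesterol synthesis genes 13 rose and 0 fell, with a median log2FC of 0.16. INSIG1 (chr7:155297776-155310235), a sterol-regulated anchor of the SREBP factors, rose from 32.7, 22.5 and 19.6 to 48.4, 45.3 and 51.6 CPM without overlap (log2FC 0.97 ± 0.11, adjusted p = 1.47e-07), MSMO1, an enzyme of the late pathway, by 0.54, and SREBF2, the factor that drives the pathway, by 0.44. Of 17 fatty acid and lipid genes 11 rose and 2 fell. Without the block 5 cholesterol and 6 fatty acid genes rose.

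Of 25 tested interferon-stimulated genes 13 rose and 0 fell, with a median log2FC of 0.39. The sole member past the fold change limit, OAS1, stood at 0.391, 0.429 and 0.258 CPM untreated and at 1.15, 0.481 and 0.638 CPM treated, just without overlap (log2FC 1.06 ± 0.30, adjusted p = 0.00648). The rise of the list rested partly on untreated replicate 3, without which 7 members rose and OAS1 had an adjusted p of 0.0559; without the block 6 members rose. Of 16 NF-kB feedback genes 4 rose (25%) and 0 fell, when 14.6% of all genes rose. Of these 4, NFKBIA, REL and BIRC3 lost the call without the block (adjusted p = 0.0990, 0.0752 and 0.251). The other, TLR3, a receptor for double-stranded RNA, rose from 4.06, 2.76 and 2.79 to 6.2, 6.06 and 6.12 CPM (log2FC 0.94 ± 0.13). Of 19 antigen presentation genes 4 rose (21.1%) and 0 fell, and without the block 1 rose, with the calls of TAPBP, CD74 and HLA-DRA lost (adjusted p = 0.333, 0.452 and 0.0581). Those of CD74 and HLA-DRA were also lost without untreated replicate 3 (0.164 and 0.173).

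Among the largest rises were 2 ligands of the TNF family. TNFSF15 (chr9:114784635-114806126, minus strand), a ligand of the death domain receptor DR3, stood at 4.29, 2.17 and 2.38 CPM untreated and at 12.7, 11.2 and 13.8 CPM treated (log2FC 2.08 ± 0.19, adjusted p = 3.46e-09). TNFSF10 (chr3:172505508-172523507, minus strand), which encodes the death ligand TRAIL, stood at 31.7, 23.5 and 10.6 CPM untreated and at 66.6, 55.4 and 54 CPM treated (log2FC 1.45 ± 0.21, adjusted p = 2.73e-06). Neither gene showed overlap between groups, and TNFSF10 was lowest in untreated replicate 3. BMF, a BH3-only gene of the BCL2 family that promotes apoptosis, rose from 22.3, 14.3 and 6.87 to 43.1, 36.5 and 34.2 CPM (log2FC 1.45 ± 0.21) and was the sole regulated gene of 13 death genes tested, of which 3 rose and 5 fell (1 and 4 without the block).

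The clearest rises by p included receptors, enzymes and transporters. LRP2 (chr2:169127109-169362685), the endocytic receptor megalin, had the smallest p of all genes tested and stood at 9.05, 6.31 and 10.1 CPM untreated and 24.8, 22.4 and 35.6 CPM treated (log2FC 1.69 ± 0.11, adjusted p = 1.1e-12). The actin-severing gene SCIN rose from 20.2, 14.9 and 16.2 to 49.3, 40.6 and 65.4 CPM (log2FC 1.56 ± 0.14). For both genes the groups were separate. SELENOP, a secreted selenium carrier, was spread more widely, at 2.81, 1.68 and 0.236 CPM untreated and 9.35, 6.54 and 6.52 CPM treated (log2FC 2.29 ± 0.28; 1.86 without untreated replicate 3). POU2F3, the tuft cell factor, AOC1, a diamine oxidase, and SLC12A3, a sodium chloride transporter, rose by log2FC 1.93, 1.76 and 1.63, and AGXT, KANK4 and PCDH18 by 1.52, 1.75 and 1.51. CDH1, the epithelial cadherin, rose from 3.11, 2.17 and 2.34 to 5.83, 5.12 and 4.45 CPM (log2FC 1.01 ± 0.22). Of 21 tested gastric and intestinal genes, however, 4 rose and 2 fell, and of 18 genes of epithelial to mesenchymal transition 3 rose and 1 fell (1 and 1 without the block).

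Matrix genes were also among the rises. COL3A1, a fibrillar collagen gene, stood at 4.18, 2.78 and 0.88 CPM untreated and at 12.2, 7.73 and 5.48 CPM treated (log2FC 1.75 ± 0.16, adjusted p = 3.85e-09), and NPNT, an integrin ligand of basement membranes, at 59.7, 36.2 and 18.9 against 136.8, 103.5 and 88.8 CPM (1.59 ± 0.14). HMCN1 and LAMB4 rose by log2FC 1.55 and 1.54. For COL3A1 and NPNT replicate 3 was lowest in both groups, and the groups were separate. LUM (chr12:91102629-91111831), a small leucine-rich proteoglycan, rose from 155.2, 122.3 and 72.6 to 319, 234 and 302 CPM (log2FC 1.31 ± 0.14). Its neighbours DCN (log2FC 1.34) and EPYC, both below 1 CPM, were called regulated upwards too. EPYC stood at a mean of 0.0673 CPM untreated, at the limit of 3 counts, and 0.263 CPM treated, so no fold can be read from it. EPYC was named after its values were seen, and the call of DCN was lost without untreated replicate 3 (adjusted p = 0.0767). COL4A2 fell (log2FC −1.04 ± 0.28; adjusted p = 0.0727 without the block), and of 25 collagen and laminin genes 9 rose and 2 fell, 3 and 0 without the block.

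Several of these are fibroblast markers. Of the 7 fibroblast markers 4 rose (LUM, DCN and PDGFRB past the fold change limit, and COL1A1 within it), 1 was at 0 in all 6 libraries (THY1) and PDGFRA did not exceed 0.0757 CPM. COL1A2 did not pass the test, at 0.0893 to 0.938 CPM untreated and 0.359 to 0.509 CPM treated. The summed level of the 7 was 92.5 to 186.5 CPM of the library total untreated and 304.2 to 372 CPM treated, of which LUM made up 75.5 to 165 and 275 to 340 CPM. Leukocyte markers summed to 7.79 to 8.78 CPM untreated and 10.1 to 13.7 CPM treated, with PTPRC at most 0.302 CPM. Endothelial markers summed to 14.9 to 30.1 and 21.1 to 27.4 CPM, and epithelial markers to 17830 to 19140 and 16710 to 20170 CPM. A part of other cells in the matrix genes was not tested.

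**Figure D4:**
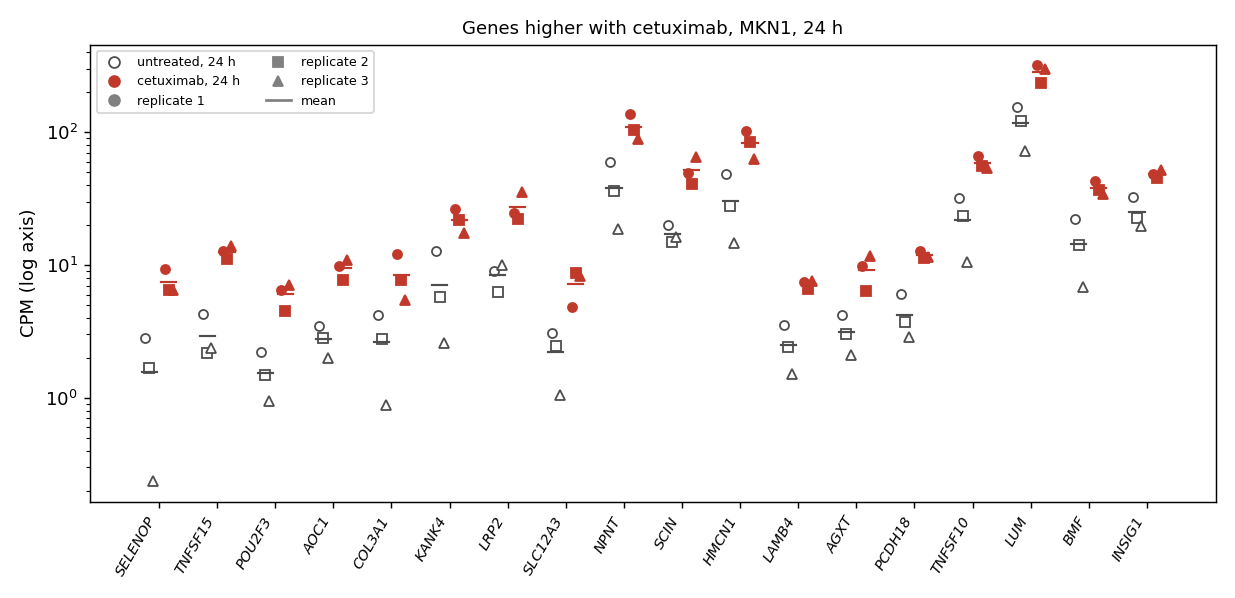
CPM (y axis, log scale) of 18 genes that rose in the 3 untreated (open, grey) and 3 cetuximab (filled, red) MKN1 libraries at 24 h; symbols mark the replicate number and lines the group means. The treated libraries lie above the untreated ones for each gene, and untreated replicate 3 is the lowest library for all genes shown except LRP2, SCIN and TNFSF15.

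The comparison at 4 h, which shares no library with that at 24 h, asks which changes were present early. Cetuximab regulated 43 genes to a higher and 73 to a lower level at 4 h (66 in all without the replicate block). Of the genes lower at 24 h, 46 were changed to a lower level at 4 h, when 4.71% of all genes were. Of the 309 genes higher at 24 h, 14 were changed to a higher level at 4 h, when 2.79% of all genes were. A log2FC above 0 at 4 h was found for 236 of the 309. Their median level in untreated cells at 4 h was 0.204 CPM, where a change is harder to call, so the 2 counts of calls do not show that the rises came later than the falls. The median log2FC at 4 h was −0.60 over all genes lower at 24 h and 0.32 over all 309 higher genes. EGR1 was at 97.6, 53.9 and 136.3 CPM untreated and at 9.91, 14.4 and 12.4 CPM with cetuximab after 4 h (log2FC −2.93), and SPRY4, DUSP6 and AREG fell at 4 h by 2.77, 2.43 and 1.91 on the log2 scale. A difference between the effects at 24 h and 4 h was not detected for these 4 genes (adjusted p = 0.931, 0.849, 0.766 and 0.478 in the order named).

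Tested as a difference, the effect at 24 h and that at 4 h differed in 1206 genes (6.09%), 38 without the replicate block. TNFSF15 had a log2FC of −0.03 at 4 h, 2.10 below that at 24 h (adjusted p = 0.000194), and COL3A1 had −0.14 at 4 h (difference 1.89, adjusted p = 1.32e-05). LRP2, NPNT, HMCN1 and LUM, too, differed between the times. NR4A1 had −0.32 at 4 h and −1.33 at 24 h (adjusted p of the difference 0.000317), with 19.1 CPM in untreated and 15.4 CPM in treated cells at 4 h. TGFA fell by 0.74 on the log2 scale at 4 h but had −0.07 at 24 h (adjusted p of the difference 5.61e-05). Of the mitosis genes 0 fell and 2 rose at 4 h, and the effect differed for 19 of 32; for DNA replication genes these numbers were 0 and 11 of 36. INSIG1 and SREBF2 had log2FC of 0.17 and 0.04 at 4 h and differed from their effect at 24 h (adjusted p = 0.00276 and 0.000191).

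A group of 67 genes was changed at both times in opposite directions, 58 of them lower at 4 h and higher at 24 h, against 822 changed at both times in the same direction. All 67 differed in the test of the difference, but calls in opposite directions in the same fit make this nearly certain, so it adds no support. The apoptosis inhibitor gene BIRC3 fell by 0.91 on the log2 scale at 4 h and had 0.42 at 24 h, NAV3, a neuron navigator gene, fell by 1.26 and then had 0.67, and the chemokine gene CCL2 fell by 1.06 and then had 0.66. CCL2 declined between the times in untreated cells, from a mean of 6.97 to 0.906 CPM, so its directions were measured at unlike levels. At 24 h the calls of BIRC3 and CCL2 were lost without the block (adjusted p = 0.251 and 0.264). CXCL8 fell at both times, by 1.82 at 4 h and by 0.93 at 24 h, the latter call being lost without the block (0.114) and without untreated replicate 3 (0.128).

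The effect of cetuximab in the presence of EGF was again measured in libraries of its own. Cetuximab regulated 45 genes to a higher and 57 to a lower level in EGF-treated cells (31 in all without the replicate block). The effect with EGF differed from that without in 1485 genes (7.49%), 30 without the block. Of the genes lower without EGF, 34 were changed to a lower level with EGF, when 3.66% of all genes were, and of the 309 higher genes 21 were higher, when 3.55% of all genes were. With EGF the median log2FC was −0.38 over all genes lower without EGF and 0.30 over all 309 higher genes. EGR1 stood at 127.4, 97.2 and 162 CPM with EGF and at 69.4, 68.8 and 95.2 CPM with EGF plus cetuximab, and DUSP6 at 71.1, 69.7 and 90.7 against 36.3, 36.2 and 38.1 CPM. For both genes the libraries of cells given both agents lay above those of cells given cetuximab alone. The effect of cetuximab on EGR1 was −0.71 on the log2 scale with EGF, a difference of 2.32 from that without (adjusted p = 0.000158), and on DUSP6 −1.03 with EGF, a difference of 1.70 (adjusted p = 0.00578). IL11 and HMGA2 had −0.88 and −0.79 with EGF, and a difference from the effect without EGF was not detected (adjusted p = 0.789 and 0.541).

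The levels of the rising genes in these groups are given side by side, since cetuximab and EGF were set against the same untreated cells. Over the 309 genes the median of the group means was 0.204 CPM in untreated cells at 4 h, 0.399 CPM at 24 h, 0.957 CPM with cetuximab, 0.165 CPM with EGF and 0.186 CPM with EGF plus cetuximab at 24 h. TNFSF10 stood at a mean of 1.76 CPM in untreated cells at 4 h and at 2.18 CPM with EGF and 3.6 CPM with EGF plus cetuximab at 24 h. LUM stood at 79, 29.1 and 35 CPM in these groups. Over the lower genes the median was 1.84 CPM in untreated cells at 4 h, 1.48 CPM at 24 h, 0.479 CPM with cetuximab, 3.11 CPM with EGF and 1.99 CPM with both agents. Since the genes were chosen on the untreated and cetuximab libraries at 24 h, those 2 values are a description.

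**Figure D5:**
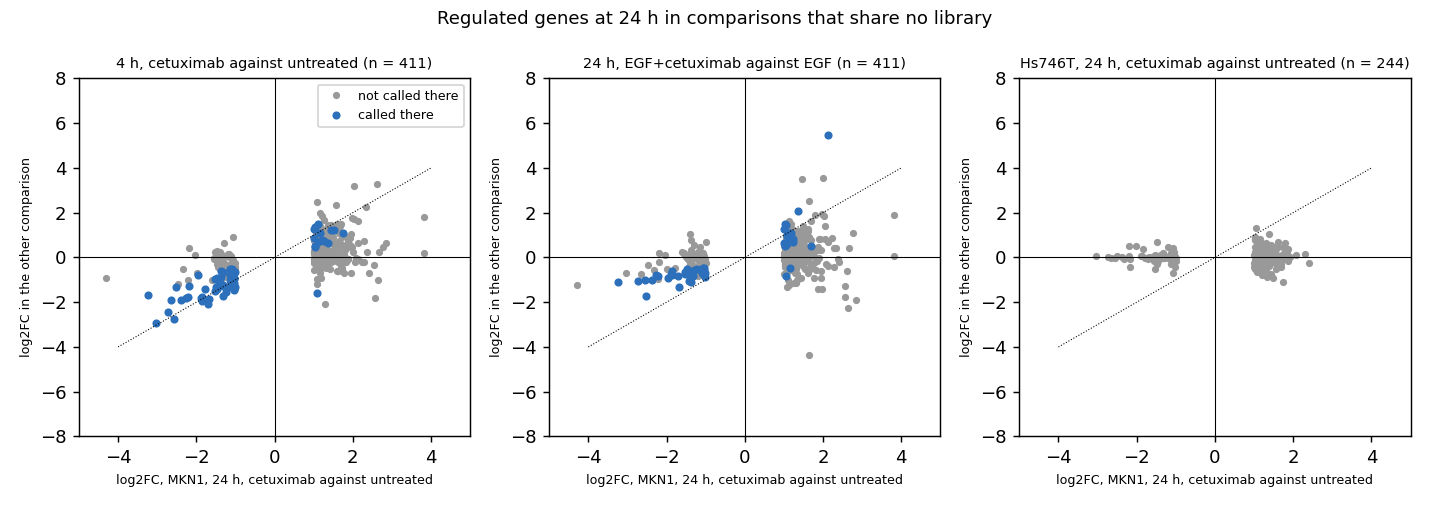
log2FC of the 411 regulated genes at 24 h (x axis) against their log2FC (y axis) at 4 h, in the presence of EGF and in Hs746T cells (244 genes tested there); blue points were called in the other comparison, and the dotted line marks equal values. Of the lower genes 88 lie below 0 at 4 h and 79 with EGF, and 0 genes were called in Hs746T.

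Afatinib, a kinase inhibitor of EGFR and HER2 at 0.5 μM, was tested directly against cetuximab at 24 h. The agents differ in kind, dose and solvent, and 1 dose of each was measured. The paper names DMSO as the solvent of afatinib, and the series holds no library with DMSO alone. The direct test called 697 genes (3.52%), 15 without the replicate block, and 15 of the 697 differed by more than the fold change limit, 13 lower and 2 higher with afatinib. EGR1 stood at 7.84, 6.72 and 7.78 CPM with afatinib, a log2 difference of −1.71 ± 0.31 from cetuximab (adjusted p = 0.00144), and SPRY4 at a mean of 1.34 CPM, −1.81 from cetuximab (adjusted p = 0.0118). DUSP4 and ETV5 were lower by 1.07 and 1.53 on the log2 scale. For AREG, EREG and FOSL1 the differences of −0.84, −0.66 and −0.43 did not pass the test (adjusted p = 0.169, 0.174 and 0.374), and for TNFSF15, LRP2 and TNFSF10 they were −0.33, 0.32 and 0.14 (adjusted p = 0.265, 0.0601 and 0.741). The 2 genes higher with afatinib past the limit, GPNMB and HSPB7, were named after their values were seen and differed from cetuximab by log2FC 1.17 and 1.08.

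In Hs746T cells, 0 of 18667 genes were changed by cetuximab at 24 h in edgeR and 0 in DESeq2; 467 had an unadjusted p below 0.05 in edgeR and 358 in DESeq2. Of the regulated genes of MKN1, 171 higher and 73 lower ones were expressed enough to be tested in Hs746T, and 85 and 31 of them had the same sign as in MKN1. The effects in the 2 cell lines differed in 3332 of 21267 genes (15.7%), in 0.569% of genes without the replicate block, and in 702 without replicate 3. With the fold change limit 1.37% of genes differed, 0.216% without the replicate block. DUSP6 was present in Hs746T at a mean of 39.9 CPM untreated and 40.6 CPM treated (log2FC 0.03) and differed from MKN1 by −2.78 ± 0.30 (adjusted p = 2.6e-09). SPRY4 and AREG, at 35.8 and 10.1 CPM in untreated Hs746T cells, had log2FC of −0.02 and 0.01 there. Several rising genes were nearly absent in Hs746T, among them LRP2 with 11 to 18 counts a library and F5 with 1 to 8, so that their effects there could not be measured well. EGFR itself stood at a mean of 282 CPM in untreated Hs746T cells.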

How the data were processed

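Counts per gene were deposited by the authors as 1 text file per library, per the labels from reads trimmed with Trim Galore and aligned with STAR to hg38; the strand setting of the counting is not given in the sources used here, so overlapping and antisense genes are uncertain. Symbols were taken from GENCODE release 29; 8404 of 65217 identifiers (0.0406% of counts) had none.

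The 42 MKN1 libraries were fitted together in edgeR 4.0.16 (R 4.3.3) by the quasi-likelihood test, with TMM scaling, filterByExpr (at least 10 counts), 1 mean per treatment and time, and the replicate number within each time point as a block. P-values were Benjamini-Hochberg adjusted over all genes. Hs746T was fitted likewise, and jointly for the difference between lines. The pairing was taken from the numbers in the labels. Same-numbered cetuximab and untreated libraries deviated together only weakly (r = 0.191, 0.183 and 0.186 across genes). Differently numbered ones had r of −0.118 to −0.0667, a contrast made in part by deviations from a group mean, which sum to 0. Over all 63 same-numbered pairs of MKN1 libraries at 24 h r ranged from −0.0184 to 0.432. DESeq2 1.42.0, other scaling, filters and sample sets, no block, and leaving out each replicate were alternatives. Named genes were all tested receptors, ligands, phosphatases and Sprouty or SPRED genes, regulated (else changed) members of the other lists, at most 6 a list, the 15 largest rises and 10 largest falls among protein-coding genes with a mean log2 CPM above 1 and 1 direction in all 3 pairs, and the 5 largest differences each way between effects. Not every gene that this rule names is reported here. Members and lists were chosen with earlier results of these data known.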

Additional observations from a re-analysis of the deposited data

Results flagged for a closer look

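Effects of cetuximab that differed between 2 settings by the test of the difference itself are given here as log2 differences. Between 24 h and 4 h, 1206 genes differed (38 without the replicate block). The effect at 24 h was higher by 2.48 for SELENOP, 2.105 for TNFSF15, 1.924 for NAV3, 1.895 for COL3A1 and 1.65 for AOC1. It was lower for VCAN (−1.04), NR4A1 (−1.02), RGCC (−0.98), PLEKHO1 (−0.89) and FAM72C (−0.87). PLEKHO1 changed direction, from log2FC 0.34 at 4 h to −0.55 at 24 h, the latter call being lost without the block (adjusted p = 0.0815).

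Between cells with and without EGF, 1485 genes differed (30 without the block). The effect with EGF was higher, that is a smaller fall, for EGR1 (2.32), DUSP6 (1.70), SPRY4 (1.56), FOSL1 (1.38) and AREG (1.37). It was lower for SELENOP (−2.71), TNFSF15 (−2.39), FAM83B (−1.88), TNFSF8 (−1.835) and the amino acid transporter gene SLC7A8 (−1.615). For TNFSF15 and TNFSF8 the difference exceeds the rise without EGF (log2FC 2.08 and 0.49), so the log2FC with EGF was below 0. The calls of FAM83B and TNFSF8 without EGF were lost without the block (adjusted p = 0.0759 and 0.130). That of TNFSF8 was also lost without untreated replicate 3 (0.0902). SELENOP stood at 0.174 to 0.351 CPM with EGF and at 0.123 to 0.339 CPM with both agents, so its effect there was not measured well.

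Between MKN1 and Hs746T, 3332 genes differed, 15.7% of those tested (0.569% without the block). The effect in MKN1 was lower for EGR1 (−3.11), DUSP6 (−2.78), SPRY4 (−2.56) and AREG (−2.40), and higher for LRRC43 (2.14), LRP2 (2.13), SELENOP (2.12) and SCIN (2.04). These 4 had 1 to 14, 11 to 18, 7 to 21 and 11 to 30 counts a library in Hs746T, so their effects there were not measured well. TERT (−4.40) and F5 (2.99) had at most 2 and 8 counts in any Hs746T library, at or near the limit of 3 counts, so no fold can be read from them.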

How the results depend on the processing

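For cetuximab at 24 h, 264 genes were regulated without the replicate block, 141 with at least 10 counts in every library (140 of the 411 genes were tested then) and 6017 without the fold change limit; with replicates or single libraries left out the range was 170 to 567. For the other comparisons the share of tested genes that was regulated is given. Without the replicate block it was 0.0555% for the difference between 24 h and 4 h (0.459% with it), 0.156% for cetuximab with EGF (0.515%), 0.0807% for the difference made by EGF (0.777%), 0.0202% for afatinib against cetuximab (0.0757%), 0.333% for cetuximab at 4 h (0.585%) and 0.216% for MKN1 against Hs746T (1.37%). With at least 10 counts in every library it was 0.29% with EGF, 0.442% at 4 h and 0.934% for the cell lines, and in DESeq2 0.328% with EGF. With each replicate left out it ranged from 0.176% to 0.627% for the times, 0.303% to 0.484% with EGF, 0.373% to 0.616% for the difference made by EGF, 0.0353% to 0.0758% for afatinib, 0.327% to 0.611% at 4 h and 0.411% to 1.9% for the cell lines. Without a filter 0.0382% of genes were regulated in Hs746T. The cause was not tested.

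Of 165 named genes 0 changed direction in the alternatives run. The call was lost for 53 without the block, 32 without untreated replicate 3, 38 without replicate 3, 40 with the 6 libraries alone and 1 in DESeq2. Levels below 0.0672 CPM lie within the limit of 3 counts.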
